A study of Mus musculus with 9 samples.

Results

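Pancreatic ductal adenocarcinoma cells recovered from mouse lungs 5 days after injection, labelled DTC, were compared with cells sorted from lung metastases at 6 weeks for a low signal of a Gstt1-mCherry reporter, labelled mCherryLow. The comparison takes 6 of the 9 RNA-seq libraries of the series (DTC 1, 2 and 3, and mCherryLow 1, 5 and 6) and the genes with at least 1 CPM (reads scaled to the total of the library) in at least 3 of those 6, which were 18701 of the 24012 genes in the table. Both groups carry the genotype SIRT6F/F/p48-Cre/p53F/+KrasL/+ on their labels, in which p48-Cre recombines floxed alleles in cells of the pancreatic lineage. Both also expressed GFP and the Gstt1-mCherry reporter and reached the lung by tail vein injection, a route that bypasses the primary tumour. DTC were taken by GFP, while mCherryLow were sorted by GFP and low mCherry. No source used here gives the strain or age of the recipient mice or says whether the cells were one clone. Whether each library came from its own mouse is not on the labels, and p-values therefore measure the spread between libraries, which may be technical.

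Cells that leave the circulation and lodge in the lung must survive detachment, oxidation and immune attack before they grow. Cells of established metastases grow in contact with stroma and recruited immune cells. The transcription factor NRF2 (gene Nfe2l2) is held back by KEAP1 and, once released, switches on enzymes that supply NADPH, recycle thioredoxin and glutathione, and break down heme. Folding chaperones of the endoplasmic reticulum are switched on by ATF6 and XBP1, lysosomal hydrolases break down cargo delivered by autophagy, and integrins link matrix to actin through talin, zyxin and filamin. The oncofetal genes Hmga2, Lin28b and the Igf2bp family are active in the embryo, shut in most adult tissue and often active again in pancreatic cancer. Gene lists for these systems and for the cell types of lung and blood are described by how many of their tested members passed limma with a Benjamini-Hochberg adjusted p under 0.05 over all genes, which is what "called" means below.

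DTC differed from mCherryLow in a large share of the transcriptome, and strong genes leaned the other way from all genes together. Of all genes tested, 34.2% were called higher and 8.87% lower in DTC. Of the 2324 genes with a mean of 100 CPM or more over the 6 libraries, 6.71% were called higher and 30.5% lower, with a median difference of -0.69 on the log2(CPM + 1) scale used for every difference given here, against 0.59 over all genes. Of the 7777 genes under 5 CPM in mCherryLow, 66.9% were called higher and 0.424% lower. That class is chosen by a low level in mCherryLow, and its members can pass the filter through the DTC libraries alone. A lean to rises is therefore built into it, and its shares are no test of how weak genes moved. Lists of housekeeping and stress enzymes, which are strongly expressed, are therefore read against the strong genes, and lists of weakly expressed genes against all genes.

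The DTC libraries stood apart in reads over genes that should be silent and in a few entries with very high values. Olfactory and vomeronasal receptor genes, used only by sensory neurons, summed to 0.140, 0.108 and 0.0511 CPM per kilobase of exon in mCherryLow 1, 5 and 6 and to 2.23, 1.25 and 3.26 CPM per kilobase in DTC 1, 2 and 3. Gm10800, a predicted gene of repeated sequence, was at 70672, 15672 and 91409 CPM in DTC 1, 2 and 3 and between 670 and 780 CPM in mCherryLow. Lars2, the mitochondrial leucyl-tRNA synthetase, was at 35119, 16373 and 42916 CPM and between 377 and 502 CPM. With Gm10801 these entries took 11.8%, 3.47% and 15.1% of the reads of the DTC libraries and at most 0.144% in mCherryLow. Library totals recovered from the values were 2051266, 10649995 and 11861241 reads for mCherryLow 1, 5 and 6 and 1313868, 2052623 and 923988 reads for DTC 1, 2 and 3, so a count of 0 allows up to 3.25 CPM in DTC 3 and 0.253 CPM in mCherryLow 6 (counting error only). All DTC libraries carry one code series in the label descriptions and the mCherryLow libraries carry others. The meaning of the codes is not stated, and the series cannot be told apart from the group. Values of the DTC columns are printed with up to 15 digits and those of every other library with 10, so a separate export or processing of the DTC libraries cannot be told apart from the group either. Sirt6, floxed in both groups, was at 12.2, 10.0 and 10.0 CPM in mCherryLow and 9.13, 3.41 and 9.74 CPM in DTC, and values summed over a whole gene do not show whether floxed exons were lost.

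**Figure D1:**
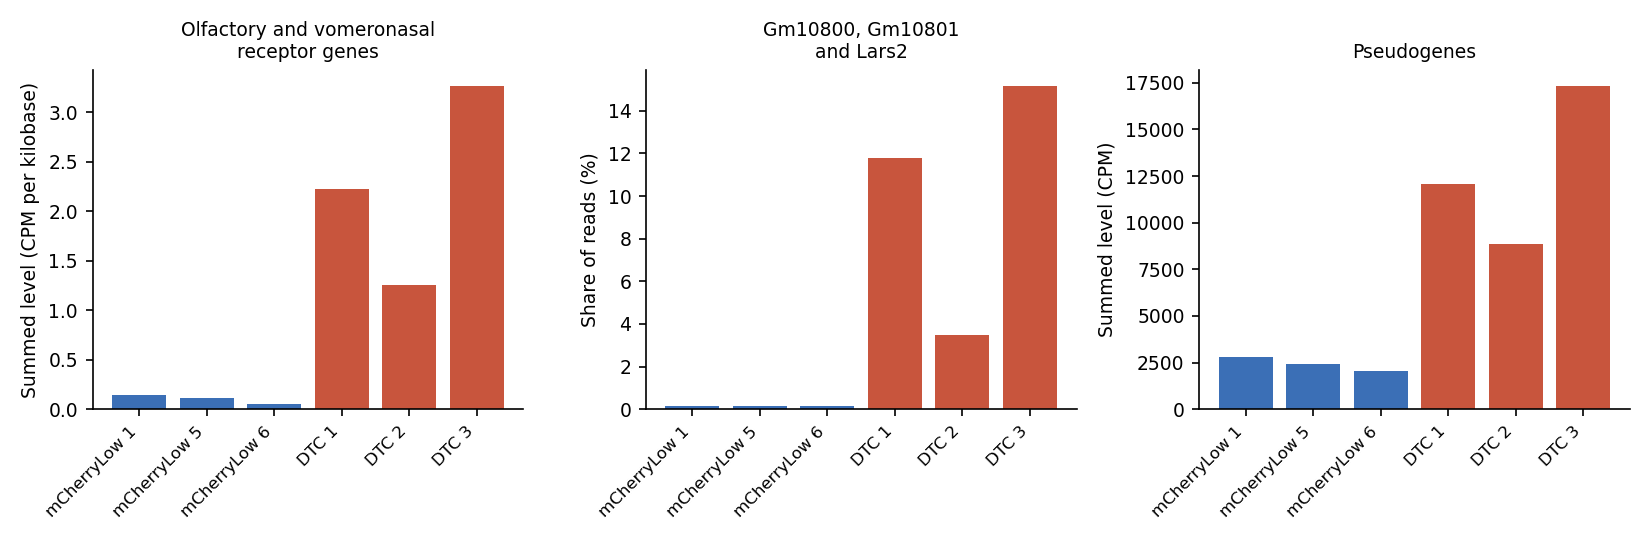
Bars give, for each mCherryLow (blue) and DTC (red) library, the summed level of olfactory and vomeronasal receptor genes in CPM per kilobase, the share of reads on Gm10800, Gm10801 and Lars2 in percent, and the summed level of pseudogenes in CPM. All 3 DTC libraries stand above all mCherryLow libraries in each panel, with DTC 2 the lowest and DTC 3 the highest of the DTC libraries.

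**Figure D2:**
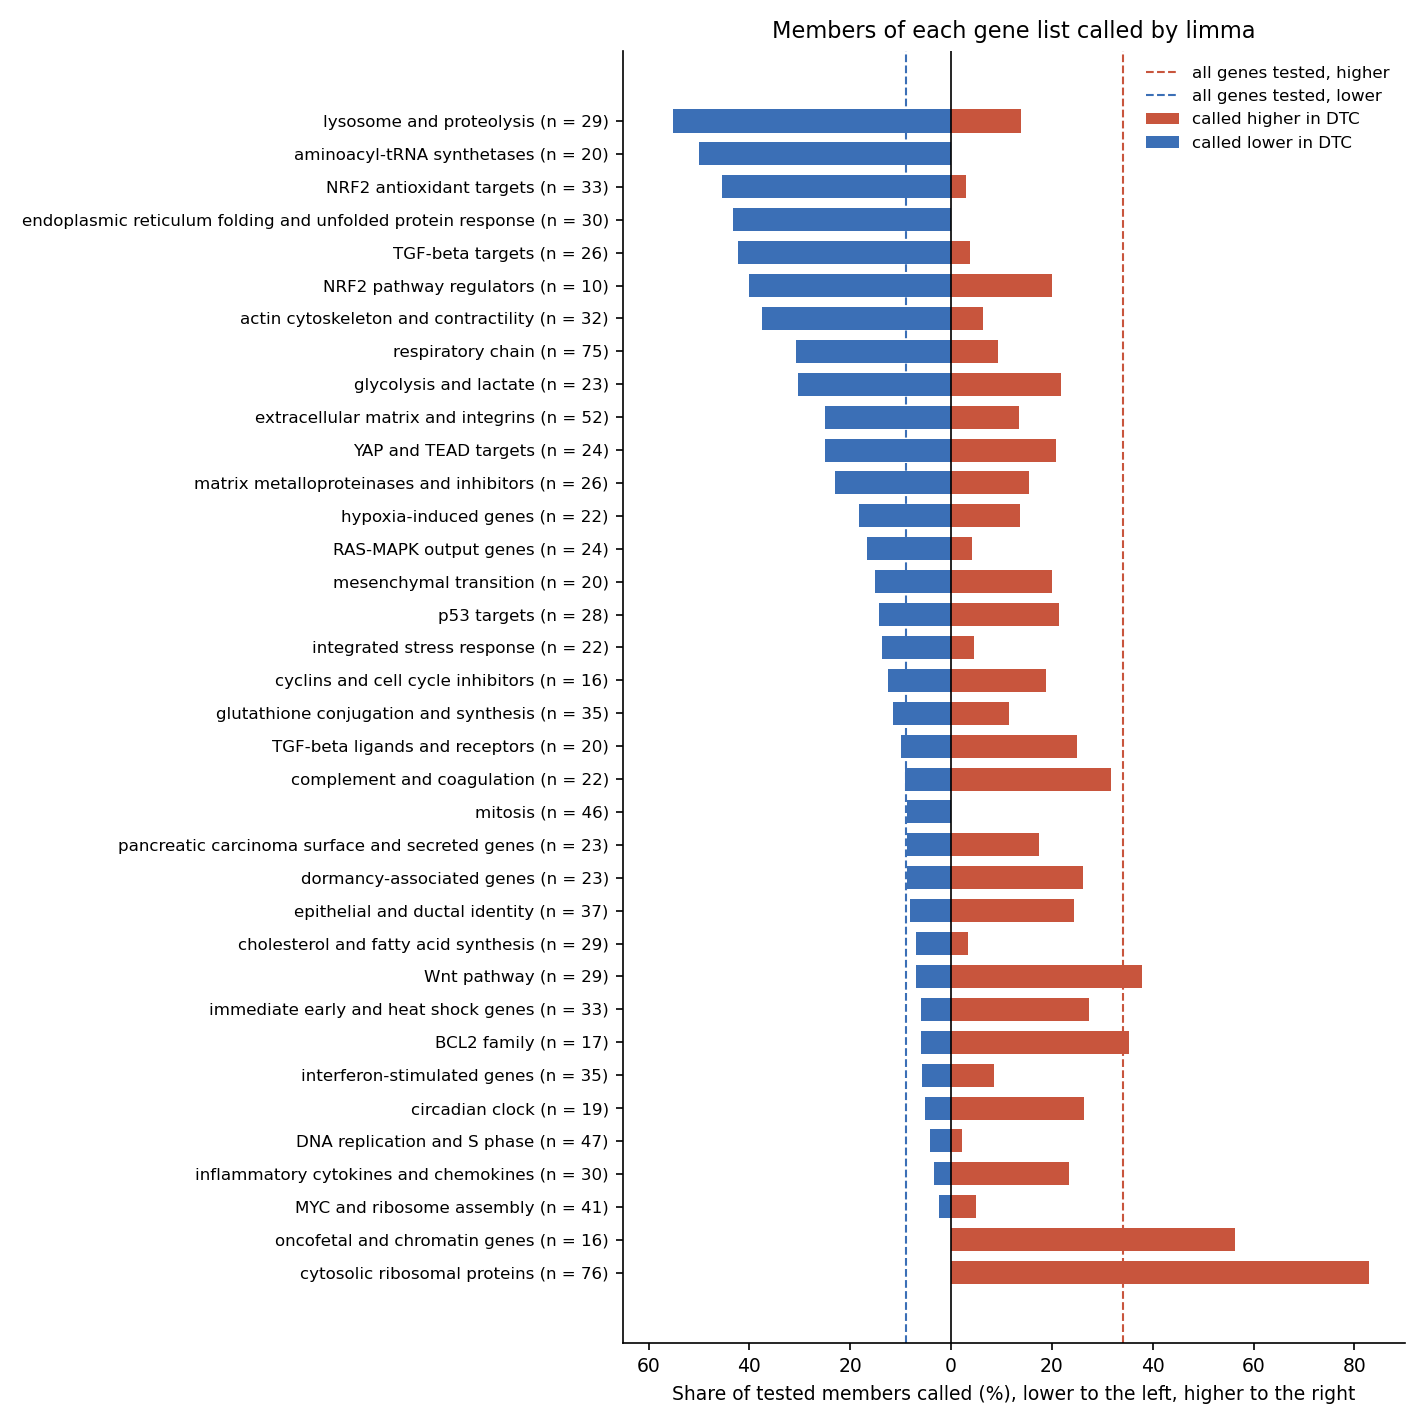
Share of the tested members of each pathway list that limma called lower (blue, to the left) or higher (red, to the right) in DTC, in percent, with the number tested in brackets and dashed lines at the shares over all genes tested, 8.87% lower and 34.2% higher. The lysosome, aminoacyl-tRNA synthetase and NRF2 target lists have the longest bars to the left, and the ribosomal protein and oncofetal lists have the longest to the right. Among genes at 100 CPM or more 30.5% were lower and 6.71% higher. Those shares, against which strongly expressed lists are read, are not drawn.

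Many targets of NRF2 were lower in DTC. Of 34 NRF2 targets listed 33 were tested, of which 15 were called lower and 1 higher, with a list median of -1.20. Of the 18 with a mean of 100 CPM or more, 11 were called lower (61.1% against 30.5% of all genes at that level). The summed level of the list lay between 13855 and 17481 CPM in mCherryLow and between 7731 and 11782 CPM in DTC, so the groups did not overlap. To let the members be seen beside their regulatory sequence, the 250 bases before the start site are given for 3 members called lower, from RefSeq on build GRCm38.p6. They are the members with the smallest p whose matches to the core of the antioxidant response element, TGACNNNGC on either strand, all lie in that stretch, and capitals mark each match.
G6pdx, chrX:74428881-74429130, minus strand: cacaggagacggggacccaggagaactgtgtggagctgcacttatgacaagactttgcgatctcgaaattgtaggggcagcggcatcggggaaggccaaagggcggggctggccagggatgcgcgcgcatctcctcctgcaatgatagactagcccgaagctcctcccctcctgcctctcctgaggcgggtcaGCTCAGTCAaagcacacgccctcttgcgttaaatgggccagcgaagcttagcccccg
Txnrd1, chr10:82858956-82859205, plus strand: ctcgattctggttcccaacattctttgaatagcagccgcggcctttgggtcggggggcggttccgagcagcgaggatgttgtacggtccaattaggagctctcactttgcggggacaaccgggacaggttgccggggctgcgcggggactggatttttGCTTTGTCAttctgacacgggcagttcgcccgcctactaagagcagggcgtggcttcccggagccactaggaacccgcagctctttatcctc
Ugdh, chr5:65435843-65436092, minus strand: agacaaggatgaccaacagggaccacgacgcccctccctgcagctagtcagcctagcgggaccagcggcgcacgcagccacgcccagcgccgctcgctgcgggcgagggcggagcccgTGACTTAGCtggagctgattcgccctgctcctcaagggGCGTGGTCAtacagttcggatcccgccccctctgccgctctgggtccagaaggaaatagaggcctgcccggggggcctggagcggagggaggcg
The match begins 57 bases before the start site in G6pdx, 92 bases before it in Txnrd1, and 132 and 94 bases before it in Ugdh. In windows of 250 bases before to 50 bases after the start, the core was found for 10 of the 26 members with a RefSeq promoter (38.5%) and for 13.99% of all genes. Of the 10 members with a match 5 were called lower, and of the 16 without one 8 were, so calls did not follow the match. The call of Ugdh (-1.05) was lost without DTC 1, mCherryLow 1 or mCherryLow 6. A match is a stretch of letters, not a measured binding site.

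The NADPH-producing enzymes of the pentose phosphate pathway were low in all 3 DTC libraries. G6pdx, the entry enzyme of that pathway, was at 183, 205 and 256.1 CPM in mCherryLow 1, 5 and 6 and at 32.0, 55.5 and 24.9 CPM in DTC 1, 2 and 3. Every DTC library lay below every mCherryLow library, and the difference was -2.55 (SE 0.39, limma adjusted p = 0.000712). The transaldolase Taldo1, at 766, 595 and 762 CPM and then 196, 172 and 258 CPM, differed by -1.77 without overlap. Pgd, the second NADPH producer of the pathway, and the transketolase Tkt each differed by -1.20 and were called. The cytosolic NADPH source Idh1 (-1.04) was called too, while the NADPH-producing malic enzyme Me1 was not (limma adjusted p = 0.713). The calls of Pgd and Idh1 were lost without DTC 1 or mCherryLow 1, that of Tkt without mCherryLow 1, and that of Idh1 also without DTC 2 or mCherryLow 6. H6pd, the counterpart of G6pdx in the endoplasmic reticulum, was on no list. It was looked up after the pathway was seen to be low, at 191, 141 and 128 CPM in mCherryLow and 19.03, 35.1 and 9.74 CPM in DTC.

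Heme and thiol enzymes fell with them. Heme oxygenase, Hmox1, was at 177, 134 and 300 CPM in mCherryLow and 25.9, 35.1 and 53.03 CPM in DTC, a difference of -2.37 (SE 0.42, limma adjusted p = 0.00136). The heme transporter Slc48a1 (-2.57) and the biliverdin reductase Blvrb (-2.28) belong to the same route, and neither overlapped between the groups. Fth1, the ferritin heavy chain that stores iron, was among the most abundant RNAs of mCherryLow at 7802, 6319 and 6916 CPM and stood at 2052, 1740 and 3820 CPM in DTC (-1.55, limma adjusted p = 0.00737), a call lost without DTC 1, mCherryLow 1 or mCherryLow 6. Its light chain Ftl1 was the only target called higher (1.11), but only 49.1% of its 50-base windows are unique among annotated transcripts, so its value is uncertain, and leaving out DTC 1 or any 1 mCherryLow library ended its call.

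Txnrd1, which reduces thioredoxin, was at 464, 410 and 418 CPM in mCherryLow and 115, 209 and 116 CPM in DTC (-1.60, SE 0.35, limma adjusted p = 0.00353). Srxn1, which repairs oxidised peroxiredoxins, fell by 2.10, the carbonyl reductase Cbr3 by 2.35 and the epoxide hydrolase Ephx1 by 1.80. Glutathione synthesis itself moved less. The regulatory subunit Gclm of glutamate-cysteine ligase differed by -0.84 and just missed the threshold (limma adjusted p = 0.0543), although its groups did not overlap, at 187, 178 and 151 CPM against 93.6, 92.6 and 101 CPM. In the glutathione list 4 of 35 members were called higher and 4 lower, which is below the share over all genes for rises and near it for falls. The transferases Gsto1 (-1.88) and Gstt3 (-1.85) were lower, and Ggt5 (3.10) and the plasma enzyme Gpx3 (1.96) were higher. Of these, Gsto1, Gstt3 and Gpx3 each lost their call in 3 or 4 of the 6 fits that left out 1 library.

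Gstt1, whose reporter was the basis of the mCherry sort, was at 15.1, 11.9 and 29.4 CPM in mCherryLow and 6.09, 11.2 and 7.58 CPM in DTC. The 3 DTC values lay below all 3 mCherryLow values, with a difference of -1.03 (SE 0.56, limma adjusted p = 0.157). An exact permutation test, two-sided, gave p = 0.1, below which a design of 3 and 3 libraries cannot go.

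The regulators of NRF2 divided. Nfe2l2 itself was at 191, 174 and 200 CPM in mCherryLow and 43.4, 90.1 and 79.0 CPM in DTC (-1.46, limma adjusted p = 0.0085). Sqstm1, the autophagy receptor p62 that draws KEAP1 away from NRF2, had 2138, 1290 and 2617 CPM in mCherryLow and 274, 430 and 262 CPM in DTC, a difference of -2.62 (SE 0.37, limma adjusted p = 0.000534). The related factor Nfe2l1 (-1.62) and the ubiquitin ligase scaffold Cul3 (-1.44) were also called lower. The repressors Bach2 and Bach1, which compete with NRF2 at its sites, were called higher, Bach2 at 2.44, 3.57 and 8.85 CPM against 53.3, 52.1 and 123 CPM and Bach1 with a difference of 1.40. The call of Cul3 was lost in 4 of the 6 fits without 1 library and that of Bach1 in 5. Bach2 is also a gene of lymphocytes, and the T and NK cell markers summed to between 23.4 and 36.1 CPM in mCherryLow and between 138 and 647 CPM in DTC. Their part in the Bach2 value was not tested.

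The NRF2 target count depended on the scaling and the libraries. It was 15 lower of 33 with quantile normalization (10.9% of all genes lower and 12.1% higher), 21 with median-of-ratios scaling (16.3%), 21 with edgeR on recovered reads (16.5%) and between 10 (without mCherryLow 1) and 17 (without DTC 2) when 1 library was left out. Over all genes the shares called lower without DTC 1, 2 or 3 were 4.93%, 10.5% and 7.02%, and without mCherryLow 1, 5 or 6 they were 5.63%, 7.23% and 5.03%. DTC 2 alone against the 3 mCherryLow libraries left 6 (0.604% of all genes lower and 10.5% higher), with its spread taken from the mCherryLow libraries.

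**Figure D3:**
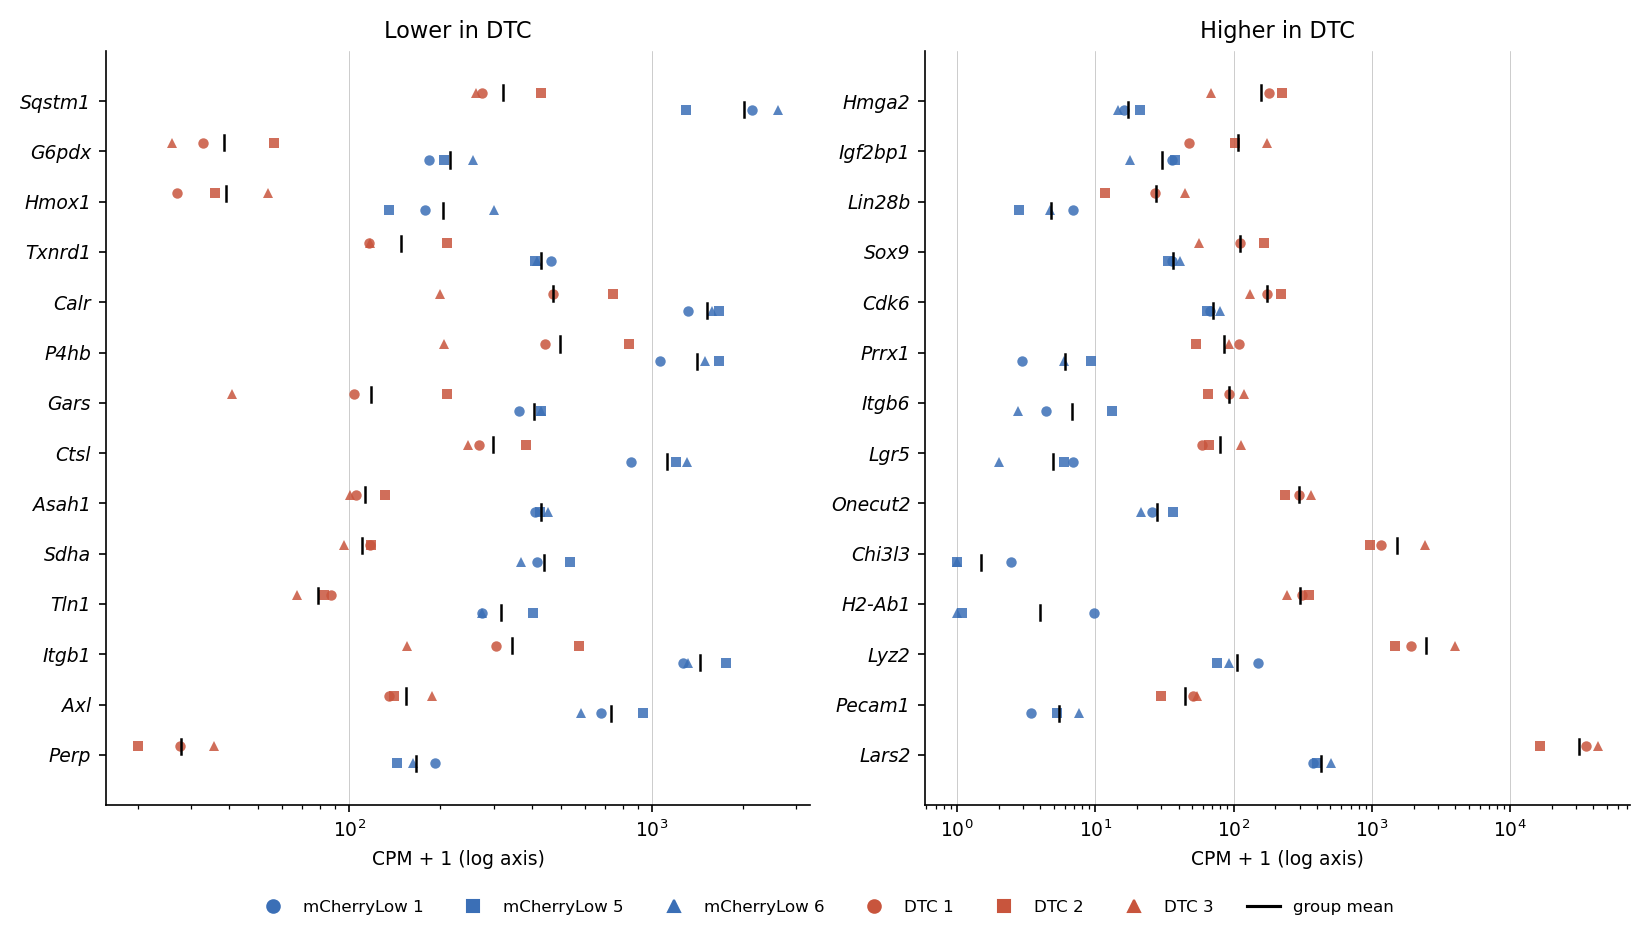
CPM + 1 (log axis) of 28 genes in each of the 3 mCherryLow libraries (blue) and 3 DTC libraries (red), with a black line at each group mean; genes lower in DTC are on the left and genes higher in DTC on the right. The groups do not overlap for any gene shown, and DTC 3 has the lowest DTC value for Calr, P4hb, Gars and Itgb1, among others.

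Many chaperones and oxidoreductases of the endoplasmic reticulum were lower in DTC. At 100 CPM or more, 12 of 23 were called lower (52.2% against 30.5% of all genes at that level, whose median was -0.69). In the whole list 13 of 30 members were called lower and 0 higher (list median -0.81). Promoters of 3 of them are shown with the ER stress response element in capitals, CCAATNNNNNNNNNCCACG on either strand, on the same build and by the same rule.
Calr, chr8:84846932-84847181, minus strand: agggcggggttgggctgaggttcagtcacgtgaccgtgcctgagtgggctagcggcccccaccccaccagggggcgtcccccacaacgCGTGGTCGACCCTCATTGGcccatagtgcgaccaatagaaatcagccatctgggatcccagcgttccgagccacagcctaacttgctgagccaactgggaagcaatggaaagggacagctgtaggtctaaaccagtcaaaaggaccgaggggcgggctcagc
Hspa5, chr2:34771840-34772089, plus strand: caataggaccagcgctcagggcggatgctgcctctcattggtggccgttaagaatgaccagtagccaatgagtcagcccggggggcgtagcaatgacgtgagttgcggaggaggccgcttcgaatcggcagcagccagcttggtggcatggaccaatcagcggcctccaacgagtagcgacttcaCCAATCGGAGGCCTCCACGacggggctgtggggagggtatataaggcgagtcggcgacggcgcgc
Pdia6, chr12:17266339-17266588, plus strand: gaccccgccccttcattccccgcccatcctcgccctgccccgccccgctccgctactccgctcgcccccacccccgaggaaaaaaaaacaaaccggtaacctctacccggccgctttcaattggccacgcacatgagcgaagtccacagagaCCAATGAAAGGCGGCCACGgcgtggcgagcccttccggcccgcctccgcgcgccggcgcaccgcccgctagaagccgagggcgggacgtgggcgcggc
The match begins 162, 65 and 98 bases before the start site in Calr, Hspa5 and Pdia6. It was found in the windows of 8 of the 23 members with a RefSeq promoter (34.8%) and of 0.137% of all genes. Of the 8 members with a match 3 were called lower, and of the 15 without one 7 were.

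Calr, the calcium-binding chaperone calreticulin, was at 1314, 1660 and 1573 CPM in mCherryLow and 470, 741 and 199 CPM in DTC, a difference of -1.87 (SE 0.44, limma adjusted p = 0.00567). P4hb, a disulfide isomerase, was at 1060, 1662 and 1498 CPM and then 441, 839 and 205 CPM (-1.71). In both genes DTC 2 was the highest of the DTC libraries and DTC 3 the lowest. Hspa5, the main chaperone of the compartment, differed by -1.88 (limma adjusted p = 0.0177), but its groups overlapped, since mCherryLow 1 was at 1374 CPM and DTC 2 at 1427 CPM. The calls of Hspa5 and Pdia6 (-1.35) were lost without DTC 1, DTC 3, mCherryLow 5 or mCherryLow 6.

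Of the transcription factors of the unfolded protein response, Xbp1 and Atf6 were lower. Xbp1 was at 311, 330 and 457 CPM in mCherryLow and at 92.9, 141 and 117 CPM in DTC (-1.64, SE 0.34, limma adjusted p = 0.00278), and Atf6 was at 77.0, 261 and 161 CPM and then 50.2, 61.4 and 15.2 CPM (-2.00). The oxidase Ero1l (-1.86) and the degradation factor Herpud1 (-1.45) were called lower too. The call of Atf6 was lost without DTC 3 or mCherryLow 5, that of Ero1l without DTC 1, mCherryLow 5 or mCherryLow 6, and that of Herpud1 without mCherryLow 6. The list count was 7 with quantile normalization, 18 with edgeR and 0 with DTC 2 alone. Without 1 library it was 6, 16 and 7 (DTC 1, 2 and 3) and 10, 5 and 5 (mCherryLow 1, 5 and 6).

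Enzymes that charge transfer RNA and genes of the integrated stress response are partly shared targets of ATF4. Of 20 cytosolic aminoacyl-tRNA synthetases tested, 10 were called lower and 0 higher, with a list median of -1.23. The list leaves out the mitochondrial enzymes and so Lars2. Of the 18 at 100 CPM or more 9 were lower (50% against 30.5% of all genes at that level). Farsb, a subunit of the phenylalanine enzyme, was at 273, 360 and 217 CPM in mCherryLow and 56.3, 109 and 29.2 CPM in DTC (-2.27, SE 0.46, limma adjusted p = 0.00262), and the glycine enzyme Gars at 362, 430 and 428 CPM and then 103, 209 and 40.04 CPM (-2.08). Both were lowest in DTC 3. The count was 4 without DTC 1, DTC 3 or mCherryLow 5, 5 without mCherryLow 1, 3 with quantile normalization and 0 with DTC 2 alone.

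The stress response list as a whole had 3 of 22 members lower and 1 higher. Of its 10 members at 100 CPM or more 3 were lower (30% against 30.5% of all genes at that level). Asns, which makes asparagine, and the amino acid transporter subunit Slc3a2 were lower (-2.12 and -1.32), Asns not without DTC 3, mCherryLow 5 or mCherryLow 6. The stress cytokine Gdf15 was higher, at 13.2, 12.4 and 20.2 CPM against 60.1, 43.4 and 152 CPM (2.23, limma adjusted p = 0.00515).

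**Figure D4:**
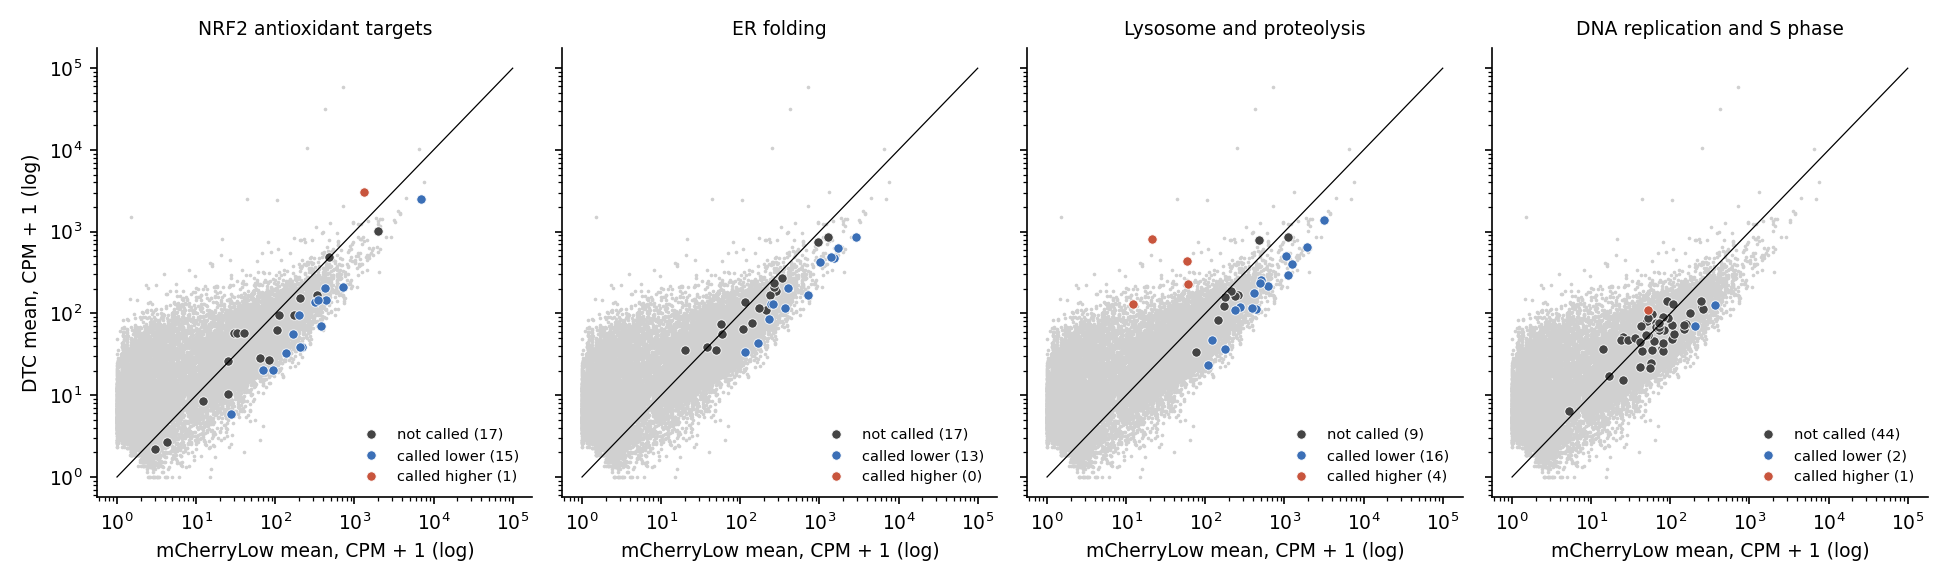
Mean CPM + 1 in mCherryLow (x axis) and DTC (y axis), both on log axes, for all genes tested (grey) and for the members of 4 lists coloured by their limma call; the line marks equal levels. Members of the NRF2, ER folding and lysosome lists lie mostly below the line at 100 CPM and above, while those of the replication list lie close to it.

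Many lysosomal genes were lower. Of 29 members tested, 16 were called lower and 4 higher (list median -1.02). Of the 25 at 100 CPM or more 14 were lower (56% against 30.5% of all genes at that level). The cathepsins Ctsl and Ctsb, which digest protein in lysosomes, differed by -1.91 and -1.60. Ctsl was at 854, 1198 and 1307 CPM in mCherryLow and 266, 381 and 246 CPM in DTC (SE 0.34, limma adjusted p = 0.00127). The ceramidase Asah1 (410, 426 and 454 CPM against 104, 131 and 99.6 CPM, -1.95) had narrow groups far apart. Lamp1, a membrane protein of the lysosome, differed by -1.68.

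The 4 members called higher were Ctss (6.24), Ctsk (2.80), the leukocyte membrane protein Laptm5 (2.59) and the proton pump subunit Atp6v0d2 (1.93), genes known from macrophages or osteoclasts. Ctsk was at 324 CPM in DTC 3 and lost its call without that library. Macrophage and monocyte markers summed to between 490 and 2718 CPM in mCherryLow and between 3529 and 8314 CPM in DTC. The sum of alveolar macrophage markers overlapped, at 3066, 655 and 865 CPM in mCherryLow and 2258, 1962 and 4878 CPM in DTC. In bulk libraries fewer cells of a type and less RNA per cell cannot be told apart. The count of lower members was 8 with quantile normalization and 7 with DTC 2 alone. Without 1 library it ranged from 8 (without DTC 1 or mCherryLow 6) to 20 (without DTC 3).

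Many genes of contact with matrix, and of the actin fibres behind it, were lower. In the actin list 12 of 32 members were called lower and 2 higher (8 of 32 lower without DTC 1 or mCherryLow 5). Of the 25 at 100 CPM or more 11 were lower (44% against 30.5% of all genes at that level). Tln1 (talin), which ties integrins to actin, was at 273, 404 and 274 CPM in mCherryLow and 86.0, 81.4 and 66.0 CPM in DTC (-2.00, SE 0.34, limma adjusted p = 0.00108), and Zyx (zyxin) at 265, 383 and 492 CPM and then 57.8, 115 and 63.9 CPM (-2.27). The cross-linkers Actn4 (-2.05) and Flna (-1.66), the focal adhesion protein Pdlim7 (-2.02) and the nuclear lamin Lmna (-1.73) were called lower as well. Flna lost its call without DTC 1 or mCherryLow 5. The apparent rise of Actg1 (4.51) is uncertain, because only 62.6% of its windows are unique.

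Integrin receptors moved apart. Itgb1, the common beta chain, was at 1265, 1760 and 1312 CPM in mCherryLow and 304, 573 and 154 CPM in DTC (-2.25, SE 0.44, limma adjusted p = 0.00222). Its fibronectin-binding partner Itga5 (-2.21), the vitronectin receptor chain Itgb5 (-2.49) and fibronectin itself, Fn1 (-1.24), were lower. The call of Fn1 was lost without DTC 1 or mCherryLow 1. Itgb6, an epithelial chain that activates latent TGF-beta, went the other way, at 3.41, 12.2 and 1.77 CPM in mCherryLow and 91.3, 64.3 and 118 CPM in DTC (4.04, limma adjusted p = 0.000639).

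Among matrix genes, the lysine hydroxylases Plod1 (-2.31) and Plod3 (-2.10) that prepare collagen for cross-linking and the laminin chain Lamb3 (-2.16, not called without DTC 1) were lower, and the fibrillar collagen Col1a2 (3.77) was higher. Col1a1 did not pass, at 35.1, 11.4 and 22.5 CPM in mCherryLow and 58.6, 11.2 and 23.8 CPM in DTC. The matrix and integrin list had 13 of 52 members lower and 7 higher, and its median was -0.34, and 0.06 without DTC 3. Without DTC 1 or mCherryLow 5 the lower members numbered 7 and 8. With all 6 libraries, 7 of the 15 at 100 CPM or more were lower (46.7% against 30.5% of all genes at that level).

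Many targets of TGF-beta were lower, with 11 of 26 called lower and 1, Itgb6, higher (list median -1.03). Of the 13 at 100 CPM or more 7 were lower (53.8% against 30.5% of all genes at that level). Id1 and Id3, inhibitors of differentiation, were at 75.6, 55.0 and 91.6 CPM and 48.8, 65.0 and 78.2 CPM in mCherryLow, and at 33.5, 26.8 and 24.9 CPM and 22.8, 19.5 and 26.0 CPM in DTC (-1.33 and -1.43). Both genes kept the DTC libraries within a narrow range below every mCherryLow library. Both calls were lost without mCherryLow 6, and that of Id1 also without mCherryLow 1. The urokinase receptor Plaur (-1.43), the AP-1 subunit Junb (-1.25) and the latency protein Ltbp3 (-1.96) were also lower. The list count of falls was 5 with quantile normalization, 5 without DTC 1 or mCherryLow 6, 6 without mCherryLow 1 and 0 with DTC 2 alone.

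YAP targets went both ways, with 6 of 24 lower (25% against 8.87% of all genes) and 5 higher (20.8% against 34.2%). Of the 7 at 100 CPM or more 2 were lower (28.6% against 30.5% of all genes at that level). The matricellular protein Ctgf, a target of both pathways, was at 39.98, 65.4 and 474 CPM in mCherryLow and 28.9, 32.2 and 10.8 CPM in DTC (-2.26, limma adjusted p = 0.0342). That call was lost without mCherryLow 6, the high library, and without any 1 DTC library. The receptor tyrosine kinase Axl, tied to mesenchymal state and to dormancy, was at 676, 931 and 583 CPM in mCherryLow and 134, 140 and 186 CPM in DTC (-2.23, SE 0.33, limma adjusted p = 0.00062). Feedback phosphatases of the RAS-MAPK pathway were lower, Dusp5 by 2.39 and Dusp6 by 1.14. Of the 24 members of that list 4 were lower (16.7% against 8.87% of all genes) and 1 higher (4.17% against 34.2%). The 4 were all among the 10 at 100 CPM or more (40% against 30.5% of all genes at that level). The call of Dusp6 was lost in 4 of the 6 fits without 1 library.

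Respiration held many falls, while those of glycolysis came at about the share of all strong genes. Of 75 subunits of the respiratory chain, 23 were called lower and 7 higher, and 21 of the 44 at 100 CPM or more were lower (47.7% against 30.5%). The list median was -0.61, against -0.69 over all genes at 100 CPM or more. Sdha of complex II was at 417, 535 and 369 CPM in mCherryLow and 116, 117 and 95.2 CPM in DTC (-1.99, SE 0.32, limma adjusted p = 0.000896), and Uqcrc1 of complex III at 527, 776 and 519 CPM and then 120, 212 and 86.6 CPM (-2.19). Atp5b of the ATP synthase differed by -1.83 and Ndufv1 of complex I by -1.76. The count of falls was 10 with quantile normalization and 43 with edgeR, and 13 or 14 without any 1 mCherryLow library.

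In glycolysis 7 of 23 genes were lower and 5 higher, with 4 lower without DTC 1, mCherryLow 1 or mCherryLow 6. Of the 10 at 100 CPM or more 3 were lower (30% against 30.5% of all genes at that level). Aldoa, an aldolase, was at 1094, 1289 and 1165 CPM in mCherryLow and 390, 441 and 353 CPM in DTC (-1.58, SE 0.31, limma adjusted p = 0.00198). The phosphofructokinase Pfkl (-1.96), the lactate exporter Slc16a3 (-2.08) and the glucose carrier Slc2a1 (-1.93) were lower, while the leukocyte and neuronal glucose carrier Slc2a3 was higher (4.44). Gapdh, at 12.2, 15.9 and 13.2 CPM in mCherryLow and 432, 520 and 284 CPM in DTC, has many processed copies and only 75.3% unique windows. For an abundant glycolytic enzyme its mCherryLow level is low, as it was in the 3 mCherryHigh libraries (8.98 to 28.0 CPM), so the rise is uncertain.

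Genes of the cell cycle showed few calls. In the replication list 2 of 47 members were lower (4.26%) and 1 higher (2.13%). In the mitosis list 4 of 46 were lower (8.70%) and 0 higher. Over all genes 8.87% were lower and 34.2% higher. At 100 CPM or more, 2 of 11 replication and 0 of 10 mitosis members were lower, against 30.5% of all genes at that level. Mki67, the marker of cycling cells, was at 99.0, 150 and 77.1 CPM in mCherryLow and 118, 122 and 71.4 CPM in DTC, and Top2a, which untangles chromosomes, at 206, 161 and 286 CPM and then 247, 312 and 104 CPM. The groups overlapped for both genes. Plk1, the kinase that drives entry into mitosis, was called lower (-2.21), with 12.9, 46.8 and 3.25 CPM in DTC, but not without DTC 1, DTC 3, mCherryLow 1 or mCherryLow 5. The list medians were -0.31 and -0.33, and 0.03 and 0.0018 without DTC 3, with 12 members lower in each list under median-of-ratios scaling. Leaving out 1 library gave 0 to 10 lower in replication, the most without DTC 2, and 0 to 6 in mitosis.

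Regulators of the G1 phase were mixed. The inhibitor Cdkn2c was at 45.8, 13.4 and 80.01 CPM in mCherryLow and 6.09, 4.87 and 5.41 CPM in DTC (-2.56, limma adjusted p = 0.00785), while its target kinase Cdk6 was higher, at 66.8, 63.4 and 78.4 CPM and then 174, 217 and 131 CPM (1.29, limma adjusted p = 0.0116). Among p53 targets 6 of 28 were higher (21.4% against 34.2% of all genes) and 4 lower (14.3% against 8.87%). The desmosome protein Perp fell by 2.61 and the RNA-binding protein Zmat3 rose by 3.10.

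Of the 16 oncofetal genes tested, of 19 listed, 9 were called higher in DTC and 0 lower (list median 1.63, against 0.59 over all genes). That is 56.2%, between the 34.2% of all genes and the 66.9% of genes under 5 CPM in mCherryLow that were called higher. Quantile normalization called 3 higher and 1 lower, and with receptor levels subtracted 2 of 11 were higher and 2 lower (list median 0.30). Hmga2, which opens chromatin in embryonic cells, was at 15.1, 20.1 and 13.5 CPM in mCherryLow and 179, 225 and 68.2 CPM in DTC, a difference of 3.05 (SE 0.49, limma adjusted p = 0.00081). Igf2bp1, which protects RNAs from decay, was at 35.1, 36.8 and 16.9 CPM and then 46.4, 102 and 172 CPM (1.70, limma adjusted p = 0.0205), and Sall4, a stem cell factor, at 0.975, 0 and 0 CPM and then 19.03, 14.1 and 32.5 CPM (4.11). Lin28b, which blocks let-7 microRNAs, was at 5.85, 1.78 and 3.71 CPM and then 25.9, 10.7 and 43.3 CPM (2.43). None of the 4 overlapped, which held for 53.2% of all genes tested, but their order among DTC libraries differed, with Hmga2 highest in DTC 2 and the other 3 highest in DTC 3. Without DTC 2, DTC 3 or mCherryLow 6 the call of Igf2bp1 was lost.

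Reads over receptor genes, given above, differed in the same direction, at 1.25 to 3.26 CPM per kilobase in DTC, and their part in these values is shown per gene. Mean DTC levels were 23.2 CPM per kilobase for Hmga2, 11.03 for Igf2bp1, 3.95 for Sall4 and 2.94 for Lin28b. With each library's receptor level per kilobase subtracted from every gene, a setting chosen after the data were seen, Hmga2 (2.86) and Sall4 (3.22) were still called, while Igf2bp1 (1.30) and Lin28b (0.40) were not. Over all genes that setting called 2318 higher (15.9%) and 2120 lower (14.6%) of 14544, and in the NRF2 target list it called 16 lower.

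Epithelial identity did not move one way. Of 37 epithelial and ductal genes, 9 were called higher and 3 lower, both below or near the shares over all genes, and the list median was 0.54, with -0.56 under quantile normalization. Epcam, the surface marker of epithelium, was at 19.99, 12.5 and 28.8 CPM in mCherryLow and 21.3, 4.38 and 16.2 CPM in DTC, and E-cadherin, Cdh1, at 99.5, 36.7 and 94.6 CPM and then 58.6, 67.7 and 29.2 CPM, with overlap in both and neither called. Krt19, the ductal keratin, was at 896, 1072 and 1320 CPM in mCherryLow and 696, 885 and 74.7 CPM in DTC and did not pass. The keratins Krt8 and Krt18 were at 1429 and 3014 CPM in DTC 1 and at 1878 and 3046 CPM in DTC 2. In DTC 3 they were at 76.8 and 169 CPM, where mCherryLow held 279 to 427 CPM and 449 to 901 CPM. DTC 3 was therefore the library lowest in keratin, and it was also the highest in macrophage markers, at 8314 CPM in sum. Krt8 has only 73.1% unique windows, so its value is uncertain, while Krt18 has 99.3%.

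Single epithelial genes stood out. Onecut2, a transcription factor of pancreas and liver development, was at 24.9, 35.7 and 20.2 CPM in mCherryLow and 296, 236 and 360 CPM in DTC (3.43, SE 0.37, limma adjusted p = 0.000386). Sox9, the ductal progenitor factor, was at 34.6, 32.5 and 40.05 CPM and then 110, 166 and 55.2 CPM (1.47, limma adjusted p = 0.0193), and was not called without DTC 1 or DTC 2. The tight-junction gene Cldn4 fell to 0.761, 0 and 0 CPM from 2.92, 9.20 and 31.8 CPM. Muc4, a membrane mucin of pancreatic cancer, rose by 4.93 while Psca, a surface antigen, fell by 3.597. The desmosomal genes Dsc2 (3.39) and Dsg2 (2.10) and the splicing and transcription factors Esrp1 (2.85) and Grhl2 (2.49) were called higher, of which Esrp1, Grhl2 and Dsg2 were not called once receptor levels were subtracted (0.85, 0.80 and 1.55). The call of Grhl2 was also lost without DTC 3, where it was at 71.4 CPM, or without mCherryLow 1.

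Mesenchymal genes were as mixed. Vim was at 2147, 2185 and 1345 CPM in mCherryLow and 1697, 1667 and 1105 CPM in DTC and did not pass. Prrx1, a mesenchymal transcription factor, rose to 109, 52.6 and 92.0 CPM from 1.95, 8.26 and 4.97 CPM (3.904, SE 0.56, limma adjusted p = 0.000545), whereas Axl, Itga5 and Fn1 fell as given above.

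Wnt pathway genes had 11 of 29 members higher (37.9% against 34.2% of all genes) and 2 lower, a share near that over all genes. The stem cell receptor Lgr5 was at 5.85, 4.98 and 1.01 CPM in mCherryLow and 57.8, 65.3 and 111 CPM in DTC (4.13, SE 0.59, limma adjusted p = 0.000545). Dkk1, a secreted inhibitor of the pathway, had no read in any mCherryLow library and 15.2, 15.1 and 27.1 CPM in DTC. The transcription factors Lef1 (2.88) and Tcf7 (3.42), both also genes of T cells, were highest in DTC 3, at 126 and 141 CPM, where T and NK markers summed to 647 CPM. Beta-catenin, Ctnnb1, was called lower (-1.23), except without DTC 1. With receptor levels subtracted 4 members were higher and 6 lower.

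Antigen-presenting cell genes were higher in DTC. In the MHC class II and dendritic cell list 13 of 16 members were called higher and 0 lower (list median 3.63). That is 81.25%, against 34.2% of all genes and 66.9% of genes under 5 CPM in mCherryLow. The list sum was between 140 and 450 CPM in mCherryLow and between 1670 and 2256 CPM in DTC. Ciita, the master activator of MHC class II, was at 1.95, 0.939 and 0 CPM in mCherryLow and 33.5, 38 and 44.4 CPM in DTC (4.46, SE 0.60, limma adjusted p = 0.000469), and the invariant chain Cd74 at 336, 76.4 and 218 CPM and then 738, 988 and 621 CPM (2.10). Markers of dendritic cell classes rose with them, the growth factor receptor Flt3 by 3.58, the cross-presenting cell marker Xcr1 by 3.67, the plasmacytoid marker Siglech by 4.33 and the migration receptor Ccr7 by 4.49. DTC 3, the highest library for macrophage and T cell sums, was the lowest for this list. The list count was 11 with receptor levels subtracted and 4 with DTC 2 alone.

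Leukocyte genes were higher too. Ptprc, the pan-leukocyte phosphatase CD45, was at 12.7, 17.7 and 8.18 CPM in mCherryLow and 73.8, 66.3 and 154 CPM in DTC (2.79, SE 0.48, limma adjusted p = 0.00119). Neutrophil genes had 7 of 10 members higher (2 with quantile normalization) and B cell genes 5 of 9, shares near or below the 66.9% among genes under 5 CPM in mCherryLow. Among cytokines 7 of 30 were higher and 1 lower, which is under the share over all genes for rises. Cxcl2 (3.46) and Il1b (3.96) rose, while Il1a, made by epithelium as well, was at 83.4, 30.0 and 115 CPM in mCherryLow and 9.89, 6.82 and 27.1 CPM in DTC (-2.33, limma adjusted p = 0.0102). Cxcl9, an interferon-gamma target of macrophages, rose to 200, 197 and 71.4 CPM from 7.31, 3.29 and 9.02 CPM. The interferon list had 3 of 35 members higher (8.57% against 34.2% of all genes) and 2 lower (5.71% against 8.87%).

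Some lung structural genes were also higher in DTC. The secretory cell genes Scgb1a1 and Bpifa1 were at 69.3, 185 and 43.3 CPM and 49.5, 92.6 and 34.6 CPM in DTC, and at 1.95, 3.94 and 11.1 CPM and 0.487, 0 and 0.0843 CPM in mCherryLow (3.89 and 5.56). The surfactant gene Sftpc of alveolar type 2 cells was at 9.89, 175 and 7.58 CPM in DTC and at most 0.975 CPM in mCherryLow (4.30, limma adjusted p = 0.00494). All 3 were highest in DTC 2. Of 14 alveolar type 2 genes tested 6 were called higher (42.9% against 34.2% of all genes), and 1 with quantile normalization. Their sum overlapped between the groups, at 236, 145 and 246 CPM in mCherryLow and 226, 564 and 337 CPM in DTC. The alveolar type 1 sum overlapped too (520, 1065 and 531 CPM against 485, 678 and 566 CPM). In that list 4 of 11 members were higher and 1 lower, near the shares over all genes. Pecam1, the endothelial adhesion molecule, was at 2.44, 4.32 and 6.66 CPM and then 49.5, 28.7 and 53.03 CPM (3.06, limma adjusted p = 0.00136). The endothelial list had 18 of 21 members higher (85.7%) and the club and ciliated list 5 of 8 (62.5%). Of all genes 34.2% were called higher, and of genes under 5 CPM in mCherryLow 66.9%. With quantile normalization these lists had 10 and 4 members higher, where 12.1% of all genes were. The fibroblast list had 5 of 18 members higher, below the share over all genes.

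Clotting genes showed opposite moves for the trigger of coagulation and its partners. Tissue factor, F3, was called lower (-1.91), though not without DTC 1, DTC 3 or mCherryLow 6, as was the protein C receptor Procr (-1.70). Factor VII, F7, was at 4.88, 0 and 0 CPM in mCherryLow and 54.8, 42.9 and 133 CPM in DTC (5.26, SE 0.77, limma adjusted p = 0.00058), and factor X, F10, at 0.975, 0 and 0 CPM and then 59.4, 37.5 and 63.9 CPM (5.41). Thrombomodulin, Thbd, rose by 4.56. Lung macrophages are known to make F7 and F10. The whole list had 7 of 22 members higher and 2 lower, near the shares over all genes.

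Sheddases of the ADAM family were lower. Adam17, which releases TNF and EGF family ligands, was at 200, 201 and 190 CPM in mCherryLow and 77.6, 78.9 and 56.3 CPM in DTC (-1.48, SE 0.33, limma adjusted p = 0.00447), and Adam10 (-1.43), Adam9 (-2.21) and Adam15 (-1.24) were called lower too, the last pair not without DTC 1, and Adam15 also not without mCherryLow 1 or with quantile normalization. Mmp10, a stromelysin, was at 7.31, 39.4 and 142 CPM and then 3.04, 1.46 and 1.08 CPM (-3.73), and the inhibitor Timp2 fell by 1.80. The macrophage elastase Mmp12 (1.81) and the neutrophil collagenase Mmp8 (3.01) rose. In all, 6 of 26 members were lower (23.1% against 8.87% of all genes) and 4 higher (15.4% against 34.2%). The 4 members at 100 CPM or more were all lower, against 30.5% of all genes at that level.

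By size alone, the largest rises after Chi3l3 (10.02), a chitinase-like protein of macrophages, were those of H2-Ab1 (7.08), H2-Aa (6.99) and H2-Eb1 (6.79), which present antigen on MHC class II, and of Ctss, Lars2 (6.10) and the complement gene C1qa (6.08). Next came Stox2 (5.89), the carbonic anhydrase Car4 (5.80), the actin-capping Tmod2 (5.78), the chemokine Ccl6 (5.71), the cytokine receptor subunit Csf2rb (5.70), Cyp2c50 (5.67), Frmd3 (5.64) and the heme-binding Hebp1 (5.64). Of genes with a mean of 20 CPM or more in mCherryLow, the largest rises besides Ctss, Lars2 and Ccl6 were Lyz2 (4.46), Onecut2 (3.43), the oxidase subunit Cyba (3.42), Tpt1 (3.30), the dipeptidase Dpep2 (3.25), Ppia (3.13), the lipid carrier Apoe (3.07), Ptma (2.95) and Ift80 (2.94). Tpt1, Ppia and Ptma have under 90% unique windows, as do Chi3l3, Csf2rb, Cyp2c50, Lyz2 and Dpep2, so their values are uncertain.

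The largest falls were those of Mir5115 (-4.36), Mmp10, the kallikrein Klk8 (-3.67), Serinc2 (-3.63), Psca, Mir5105 (-3.44), the carbonic anhydrase Car2 (-3.25), the secreted glycoprotein Lgals3bp (-3.23) and Cldn4. They were followed by Gnpda1 (-3.16), Rcn3 (-3.12), the adhesion receptor Gpr56 (-3.11), Klhl36 (-3.08), D6Wsu163e (-3.03) and Slc35d2 (-3.00). Serinc2, a membrane protein, was at 53.6, 34.8 and 51.9 CPM in mCherryLow and 0.761, 8.77 and 2.16 CPM in DTC. Lgals3bp was at 566, 590 and 1086 CPM and then 113, 298 and 11.9 CPM. In both, every DTC library lay below every mCherryLow library. Mir5115 and Mir5105 are entries for microRNA genes, which these libraries of long RNA do not report as mature microRNAs.

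Ribosomal protein genes had 63 of 76 members called higher and 0 lower, but only 15 of the 76 have at least 90% unique windows, and 8 of those 15 were called higher. Among all genes with that share of unique windows 31.6% were called higher and 9.87% lower. Rpl19 shows the scale, at 1.95, 2.35 and 2.11 CPM in mCherryLow, 322.7, 223 and 120.1 CPM in DTC and 1.02 to 4.66 CPM in mCherryHigh. The part of multimapping reads in these values was not tested.

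**Figure D5:**
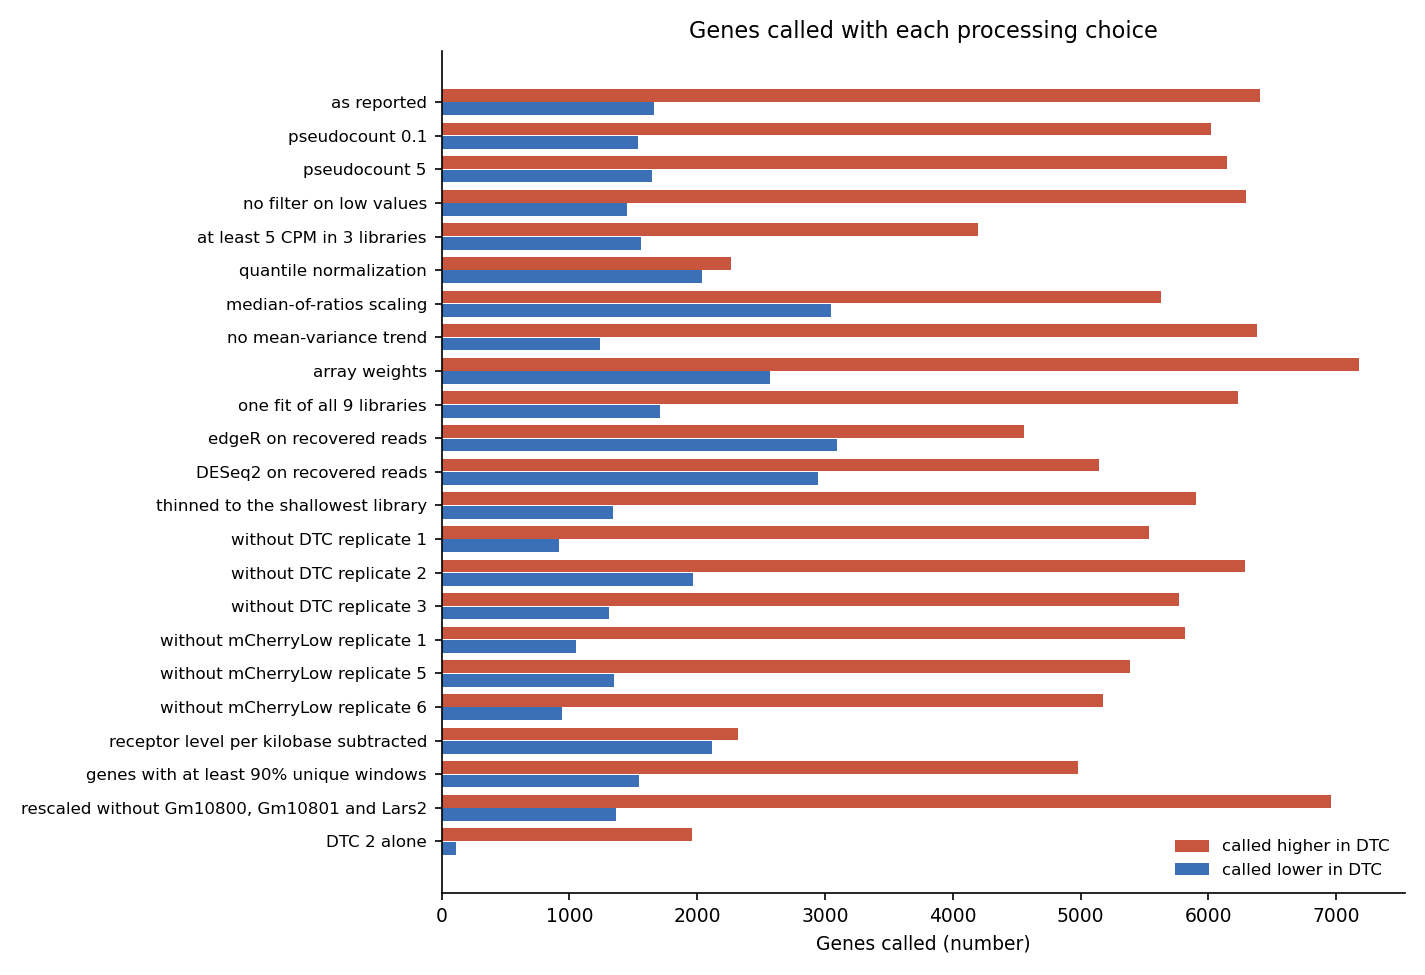
Number of genes called higher (red) and lower (blue) in DTC as reported and with each other processing choice. Rises outnumber falls under every setting, by the least with receptor levels subtracted (2318 and 2120) and with quantile normalization (2264 and 2036).

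Across processing choices rises outnumbered falls, but by different margins. As reported, 6405 genes were called higher and 1659 lower, so 79.4% of calls were rises. The share was 52.7% with quantile normalization (2264 higher and 2036 lower), 64.9% with median-of-ratios scaling (5628 and 3049), 59.6% with edgeR on recovered reads (4558 and 3095) and 52.2% with receptor levels subtracted. Of the genes called lower as reported, 1632 of 1659 were also called lower by edgeR and 1037 with quantile normalization.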

How the data were processed

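Lung tumour cells were profiled by RNA-seq. Sorted cells went through RNAqueous-Micro extraction, SMART-Seq v4 amplification and Nextera XT library preparation, per the labels' protocols. The authors deposited one table of CPM per gene, and the submitters' processing notes name the build mm9. Aligner and counter: not given in the sources used here. Every CPM value was a whole number of reads within 0.01 read (100% of values), so the reads and the depth of each library were recovered. A gene at 0 may have up to 3 reads per library (counting error only).

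The 3 DTC and 3 mCherryLow libraries, grouped by their labels, were compared with limma 3.58.1 (R 4.3.3), fitted to log2(CPM + 1) values with the trend option. Genes needed at least 1 CPM in 3 of the 6 libraries, and p-values were adjusted by Benjamini-Hochberg over all 18701, with calls at 0.05. The gene lists and this comparison were chosen with earlier results of these data known. Symbols are those of the deposited table, and lengths and unique windows came from GENCODE M21, which is on a later build and matched 94.0% of gene IDs. The genes named by size were the 15 largest called changes each way whose groups did not overlap and whose higher group averaged 10 CPM or more, and the 12 largest such rises among genes with at least 20 CPM in mCherryLow, passing over predicted, ribosomal protein, receptor and sex-linked genes. Each list described gives up to 6 members with the smallest p and markers of a fixed kind (Gstt1 and Krt19 among them). Other members named were chosen after their values were seen.

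On recovered reads, edgeR 4.0.16 called 4558 genes higher and 3095 lower, and DESeq2 1.42.0 called 5142 and 2945. On data simulated for DTC with mCherryLow (18066 genes, 50 changed at each fold), limma recovered 0, 15, 31 and 38 of the genes changed 2-, 4-, 8- and 16-fold, with 6 false calls. It called 90 genes there and 8064 in the data, so the adjusted threshold was stricter in the simulation. These recovery rates therefore do not carry over to the data. Other pseudocounts, filters, scalings, variance models, depths and left-out libraries were tried, as were 4 alternatives chosen after the data were seen. The 3 mCherryHigh libraries entered only one alternative and a few values given beside a result.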

Additional observations from a re-analysis of the deposited data

Results flagged for a closer look

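Of the 3 mCherryHigh libraries, which are neither of the groups compared, a pair carried signals above those of mCherryLow. In mCherryHigh 1 the olfactory and vomeronasal receptor genes summed to 0.844 CPM per kilobase, above the highest mCherryLow library (0.140) and below the lowest DTC library (1.25). Lars2 stood at 2734 CPM in mCherryHigh 6, above the highest mCherryLow library (502 CPM) and below the lowest DTC library (16373 CPM). What set these values was not tested.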

How the results depend on the processing

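No paired analysis was possible because DTC 1, 2 and 3 and mCherryLow 1, 5 and 6 share only the number 1. The count of 6405 genes called higher went to 4200 with a filter of 5 CPM (fewer genes tested), 2264 with quantile normalization, 2318 with receptor levels subtracted and 1956 with DTC 2 alone. The count of 1659 called lower went to 3049 with median-of-ratios scaling, 2567 with array weights, 3095 with edgeR, 2945 with DESeq2 and 113 with DTC 2 alone. The cause was not tested, beyond the 5 CPM filter and the loss of libraries in DTC 2 alone. Leaving out 1 library gave between 5179 and 6286 higher and between 922 and 1969 lower, with 922 without DTC 1, 940 without mCherryLow 6 and 1052 without mCherryLow 1. The median over all genes was 0.59 as reported, -0.14 with quantile normalization, 0.28 with median-of-ratios scaling, 0.14 with edgeR, 0.30 with DESeq2 and -0.52 with receptor levels subtracted. Gstt1 lay between -2.32 and -0.60 over 22 alternatives (adjusted p 0.0242 to 0.624), between -1.29 and -0.67 with 1 library left out, and passed only with quantile normalization (-2.32). Of 182 genes named besides it, DTC 2 alone ended 116 calls, quantile normalization 33, receptor subtraction 27 and leaving out DTC 1 23, the most of any library left out. Igf2bp1, Lin28b, Hspa5, Esrp1 and Grhl2 were among the genes that lost theirs with receptor levels subtracted. A few genes that were not called changed sign. Col1a1 (0.26) went to -0.40 with quantile normalization, -0.087 with median-of-ratios scaling, -0.047 with edgeR, -1.32 with receptor levels subtracted and -0.84 with DTC 2 alone. Mki67 (-0.05) and Top2a (-0.08) went to 0.21 and 0.32 with quantile normalization, 0.14 and 0.14 with array weights, 0.011 and 0.02 with thinning to the shallowest library, 0.102 and 0.074 with rescaling without Gm10800, Gm10801 and Lars2, and 0.22 and 0.56 with DTC 2 alone. Vim (-0.34) went to 0.14 with quantile normalization. With 1 library left out, Col1a1 ranged from -0.33 to 0.81, Mki67 from -0.27 to 0.21 and Top2a from -0.40 to 0.39. Receptor subtraction, the limit to unique genes, the rescaling and DTC 2 alone were chosen after the data were seen. Depth limits DTC 3 most, where 1 read is 1.08 CPM.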
